A study of Mus musculus with 24 samples.

Results

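The cytosolic ribosomal protein genes encode the protein parts of the large (Rpl) and small (Rps) subunits of the ribosome in the cytoplasm. They were taken from a microarray series on mouse liver and liver tumors by gene symbol: Rpl or Rps followed by a number, with Rplp0, Rplp1, Rplp2 and Rpsa added, and with the Rps6k kinases and pseudogenes left out. This gave 63 genes on the array (39 large and 24 small subunit) with 81 probes, out of 25697 probes in all. Of these, 56 genes (33 large and 23 small subunit) had a probe above background (detection p under 0.01) on at least 2 arrays and were tested among 8969 named genes. The other 7, Rpl6, Rpl14, Rpl17, Rpl39l, Rplp2 and Rps23 at 0 arrays and Rpl3l at 1 array, were not above background often enough to be tested.

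Total RNA of 24 frozen samples from 9-month-old male mice was measured on Illumina MouseRef-8 v2.0 bead arrays, 1 array a sample. The groups were Chop-/- liver tumors (n = 2), wild-type liver tumors (n = 3), whole liver of Chop-/- mice given diethylnitrosamine (DEN, a liver carcinogen; n = 7), whole liver of wild-type mice given DEN (n = 6), and whole liver of Chop-/- (n = 3) and wild-type (n = 3) mice given PBS. Wild-type mice were C57BL/6J, the Chop-/- mice were backcrossed to that strain and lack most of the CHOP reading frame in every cell from conception, and the single injection (25 mg/kg DEN or PBS) was given on day 15 of life. Tumors of both genotypes came from DEN-treated mice, and DEN-treated livers held nodules beside tumor-free tissue. The labels do not tie tumors to single mice, so p-values measure only the spread between these samples.

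Ribosomal proteins are made in equal numbers, since a ribosome holds 1 copy of nearly every one of them, and their mRNAs are among the most abundant in a liver cell. Most of these mRNAs begin with a C followed by a run of pyrimidines, the 5′ terminal oligopyrimidine (5′TOP) element, through which growth signals of the mTOR pathway control their translation. CHOP, the product of Ddit3, is a transcription factor of the stress response that follows phosphorylation of the initiation factor eIF2α. In cells under stress of the endoplasmic reticulum it is known to raise the expression of genes for protein synthesis.

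The sequences around the annotated transcription start are shown because a pyrimidine-rich start is the known common feature of these mRNAs. RefSeq promoters (GRCm38.p6) were matched for 48 of the 56 genes. In the 30 bases made up of the 20 before the start and the first 10 transcribed, an unbroken run of 6 or more pyrimidines (C or T, on the transcribed strand) was present in 28 of the 48 genes (58.3%), against 33.8% of 27025 genes with a promoter. The letters CCGGAAG, the core of ETS factor sites, lay on either strand of the 300-base promoters of 19 of the 48 genes (39.6%), against 9.93% of all genes. The letters AAGATGGC, which YY1 binds, lay in 6 of the 48 (12.5%), against 3.19% of all genes, and the motifs can share the letters AAG where the second follows the first. Below are the windows of the 6 genes that differed most between tumors and of the 2 that differed least, with pyrimidine runs of 6 or more in capitals.
Rps6 (chr4:86857358-86857387, minus strand): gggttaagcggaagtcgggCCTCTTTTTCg
Rpl13a (chr7:45128736-45128765, minus strand): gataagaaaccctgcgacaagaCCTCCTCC
Rps13 (chr7:116334181-116334210, minus strand): cgcgcgagagcaaacgtcggtgagtggcgt
Rps7 (chr12:28635944-28635973, minus strand): gaagagcttccggtttccacccacctactt
Rpl27a (chr7:109519175-109519204, plus strand): cgcgagacttcgtgagCTCCTCCCTTTTCC
Rplp0 (chr5:115559447-115559476, plus strand): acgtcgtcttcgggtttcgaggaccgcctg
Rpl36a (chrX:134585634-134585663, plus strand): aggaagtgcacccaggcaccgcctataaac
Rpsa (chr9:120127746-120127775, plus strand): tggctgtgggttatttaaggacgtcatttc
Runs of this kind were present in the windows of Rps6, Rpl13a and Rpl27a and not in those of the other 5. The counts above, for the 48 and for all genes, took a match at any annotated start of a gene, and 8 of the 48 had several. A match describes the letters at an annotated start and says nothing of the start used in these samples.

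Values are log2 signals after background correction and quantile normalization, in which a difference of 1 is a 2-fold change. Ddit3 checked the genotypes: its probe read 4.39 and 4.71 in Chop-/- tumors, against 8.37, 8.64 and 8.90 in wild-type tumors, and it was above background on every wild-type array and on no Chop-/- array. Between 8953 and 11248 probes were detected on each array. The array names carry a letter, A, B or C, that splits the arrays into 3 sets of 8, and what the letter stands for is not given in the sources used here. Chop-/- tumors lay in sets B and C and wild-type tumors in sets A and B. The Chop-/- tumor of set C (array C_24) stood apart: over all genes it correlated with the other 4 tumors at r = 0.89 to 0.93, while the Chop-/- tumor of set B (array B_16) correlated with the wild-type tumors at 0.95 to 0.97. Of the 56 genes, 52 were detected on all 24 arrays. Rpsa was detected on 2 arrays and lay near the floor throughout, so its values carry little information.

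Ribosomal protein mRNAs were highest in Chop-/- tumors, intermediate in wild-type tumors and lowest in whole livers. The median over the 56 genes, relative to the mean of PBS-treated wild-type livers, was 0.74 and 0.96 in the Chop-/- tumors, against 0.24, 0.24 and 0.34 in the wild-type tumors. It ranged over -0.12 to 0.17 in DEN-treated Chop-/- livers, against -0.12 to 0.25 in DEN-treated wild-type livers. In PBS-treated livers it ranged over -0.22 to -0.13 in Chop-/- mice, against -0.15 to 0.22 in wild-type mice. Both Chop-/- tumors stood above every other array, and 1 wild-type liver given DEN (0.25) reached the level of the wild-type tumors. In both subunits the Chop-/- tumors stood above every other array. The median of the large subunit was 0.74 and 0.99 in Chop-/- tumors, against 0.23 to 0.36 in wild-type tumors, and that of the small subunit was 0.80 and 0.84 in Chop-/- tumors, against 0.21 to 0.30 in wild-type tumors. In the small subunit the wild-type tumors overlapped the livers, as the DEN-treated wild-type liver on array A_03 reached 0.31 and the PBS-treated wild-type liver on array C_17 reached 0.28.

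**Figure D1:**
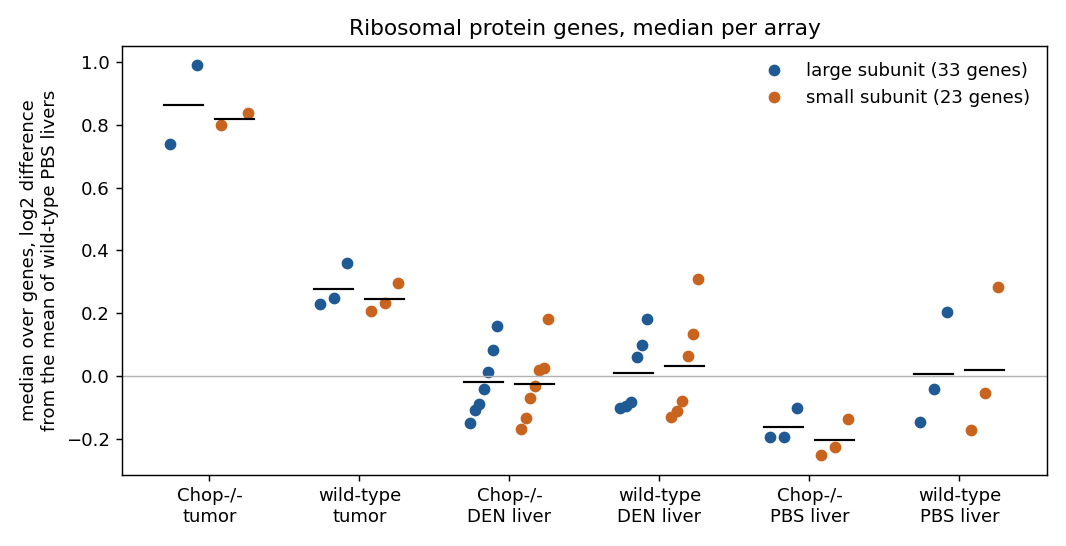
Median log2 difference of the large (33 genes, blue) and small (23 genes, orange) subunit from the mean of PBS-treated wild-type livers, 1 point per array, with the group mean as a black line. The 2 Chop-/- tumors sit between 0.74 and 0.99, the 3 wild-type tumors between 0.21 and 0.36, and all livers at or below 0.31.

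Gene by gene, both Chop-/- tumors lay above all 22 other arrays for 37 of the 56 genes (20 large and 17 small subunit), a pattern seen in 6.46% of the 8969 genes tested. All 3 wild-type tumors lay above all 19 livers for 8 of the 56 (Rpl3, Rpl12, Rpl29, Rpl31, Rplp1, Rps12, Rps19 and Rps20), against 6.23% of all genes. For 45 of the 56 (28 large and 17 small subunit) the mean of Chop-/- tumors exceeded that of wild-type tumors, which in turn exceeded all 4 liver means, against 18.9% of all genes.

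The first comparison asked how tumors that lack CHOP differ from tumors that have it. The mean of all 56 genes was higher in tumors without CHOP than in those with it, against 47% of all genes tested. With no filter on detection 61 of 63 were above 0, but the 7 genes added there were at background, so their signs carry little information. The median difference was 0.59 (1.51-fold), with a range of 0.10 for Rpsa to 1.27 for Rps6, and the median over all genes was -0.03. The values did not overlap between the groups, with Chop-/- tumors higher, for 42 of the 56, against 14% of all genes. With limma and Benjamini-Hochberg adjustment over all genes, 25 rose (14 of 33 large and 11 of 23 small subunit) and none fell, against 4.43% of all genes called higher. At an unadjusted p under 0.05, 40 of the 56 were higher and none lower, against 26.4% of all genes in either direction. At the thresholds of the study's methods, over 1.5-fold and unadjusted p under 0.05, 28 were higher and none lower, against 8.88% of all genes higher. The study had pointed to this group of genes on the same samples, so the counts are not independent evidence of its direction.

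The number that passed the test rested on few arrays. Whichever tumor array was left out, at least 54 of the 56 genes stayed above 0. These genes share the same 2 and 3 tumors and are not replicates of the genotype, so their direction rests on few tumors as well. Without the Chop-/- tumor of set C, which leaves a lone Chop-/- tumor assumed to vary like the other groups, 1 gene passed (Rpl27a, difference 1.10, adjusted p = 0.032 with limma), 26 were higher at an unadjusted p under 0.05, and 54 of the 56 stayed above 0 with a median of 0.51. Without the other Chop-/- tumor, the median was 0.69. The calls over all genes moved with the settings as well, from 397 of 8969 called higher in the main fit. Without the wild-type tumor on array A_08, 14 passed, against 162 of all 8969 genes called higher. With array set as a fixed block in the limma fit, 14 passed, against 216 of all 8969 genes called higher. The 11 that lost the call were Rpl5, Rpl9, Rpl22l1, Rpl23a, Rpl27, Rplp1, Rps2, Rps7, Rps16, Rps21 and Rps27. With array weights 5 passed, against 101 of all 8969 genes called higher. In a fit of the 5 tumor arrays alone none passed, with 1 gene of all 8969 called. In that fit 23 were higher at an unadjusted p under 0.05, against 12% of all genes in either direction. Within set B, the only set with both genotypes, the Chop-/- tumor exceeded the wild-type tumor for 50 of the 56 genes, by a median of 0.48, with 1 array each. The part of array set and of the tumor that stood apart in the size of the difference was not tested beyond these values.

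**Figure D2:**
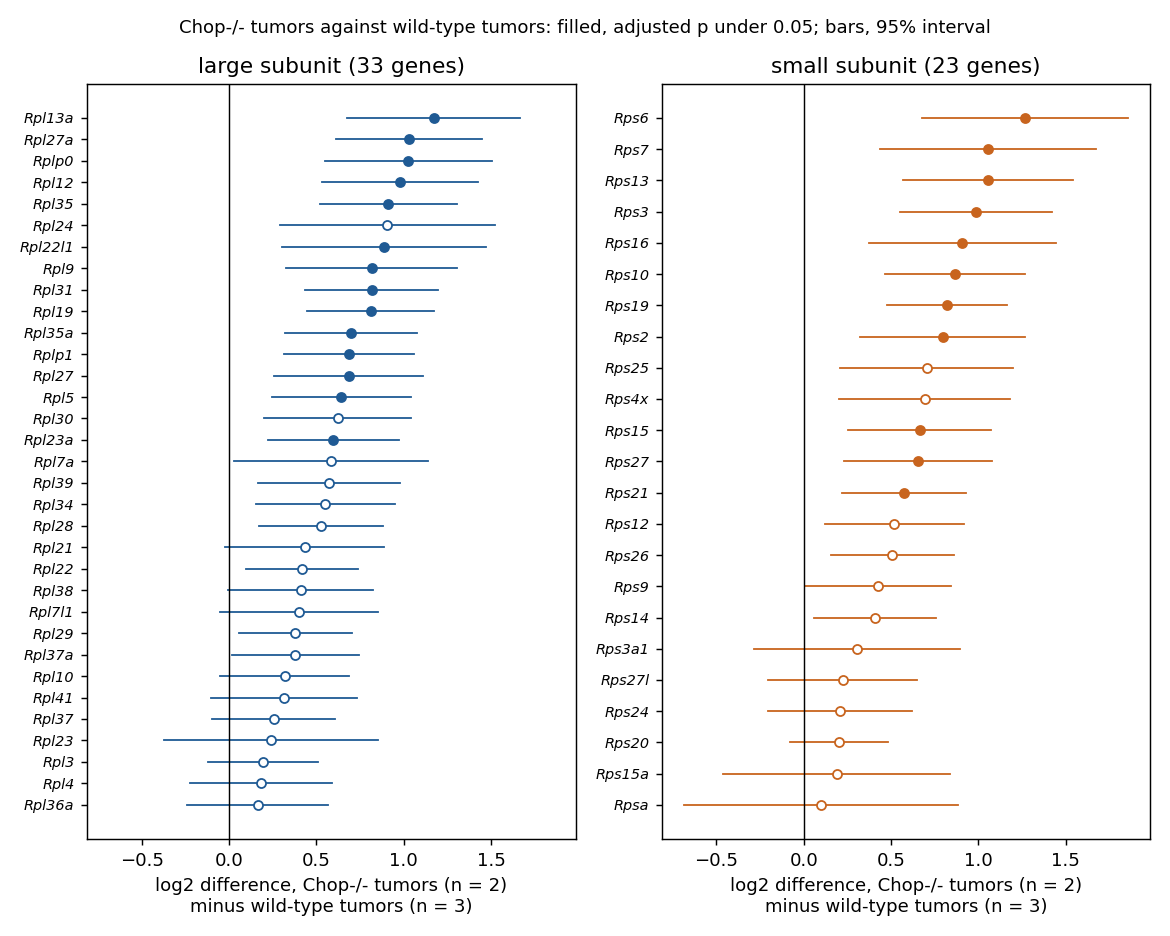
Log2 difference between Chop-/- tumors (n = 2) and wild-type tumors (n = 3) for the 33 large subunit genes (left, blue) and the 23 small subunit genes (right, orange), with 95% intervals from limma. Filled points passed an adjusted p of 0.05 (14 large, 11 small). All 56 points lie right of 0, from 0.10 for Rpsa to 1.27 for Rps6.

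Rps6, the small subunit protein that the S6 kinases phosphorylate downstream of mTOR, differed most. Its log2 signal was 12.70 and 13.23 in Chop-/- tumors, against 11.33, 11.67 and 12.09 in wild-type tumors. In livers it ranged over 10.94 to 11.72 (median 11.35) in DEN-treated Chop-/- mice, against 11.16 to 11.80 (median 11.31) in DEN-treated wild-type mice. The tumors of the 2 genotypes did not overlap, and both Chop-/- tumors exceeded every liver, including the highest PBS-treated wild-type liver at 12.14. The difference between tumors was 1.27 ± 0.29 (SE), or 2.41-fold, with adjusted p = 0.0072 (limma).

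Rpl13a, a large subunit protein that in human monocytic cells also leaves the ribosome to silence inflammatory mRNAs, read 10.83 and 11.01 in Chop-/- tumors, against 9.68, 9.70 and 9.87 in wild-type tumors. The values within each tumor group lay close together and the groups were far apart, by 1.17 ± 0.24 (SE), with adjusted p = 0.0040 (limma). Livers ranged over 8.87 to 9.61 in DEN-treated Chop-/- mice, against 8.98 to 9.72 in DEN-treated wild-type mice. The PBS-treated wild-type liver on array C_17 read 9.79. The wild-type tumors thus overlapped the livers while the Chop-/- tumors did not.

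Rps13, a core protein of the small subunit, read 12.49 and 13.04 in Chop-/- tumors, against 11.34, 11.83 and 11.96 in wild-type tumors, a difference of 1.06 ± 0.24 (SE; adjusted p = 0.0067, limma). Rps7, which besides its place in the small subunit binds MDM2, the inhibitor of p53, read 11.13 and 11.75 in Chop-/- tumors, against 10.05, 10.45 and 10.66 in wild-type tumors. Its difference was 1.06 ± 0.30 (SE; adjusted p = 0.026, limma), and it missed the threshold with array set as a block (adjusted p = 0.070). For both genes the 2 tumor groups did not overlap, and the Chop-/- tumors exceeded all livers.

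Rpl27a, a large subunit protein, read 10.42 and 10.27 in Chop-/- tumors, against 9.35, 9.04 and 9.56 in wild-type tumors. It had the smallest adjusted p among the 56 genes (difference 1.03 ± 0.20, adjusted p = 0.0028, limma), and both Chop-/- tumors again exceeded every other array.

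Rplp0 forms the base of the ribosomal stalk, the flexible arm that recruits elongation factors. It read 7.58 and 7.35 in Chop-/- tumors, against 6.16, 6.12 and 7.03 in wild-type tumors, a difference of 1.03 ± 0.23 (SE; adjusted p = 0.0071, limma). The third wild-type tumor lay closer to the Chop-/- tumors than the other two did, and it shared set B with the Chop-/- tumor at 7.58. Its stalk partner Rplp1 read 14.09 and 14.48 in Chop-/- tumors, against 13.48, 13.57 and 13.75 in wild-type tumors (difference 0.69 ± 0.18, adjusted p = 0.018, limma). With array set as a block, Rplp1 did not pass (adjusted p = 0.066, limma). The probe of the third stalk gene, Rplp2, was not above background on any array.

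**Figure D3:**
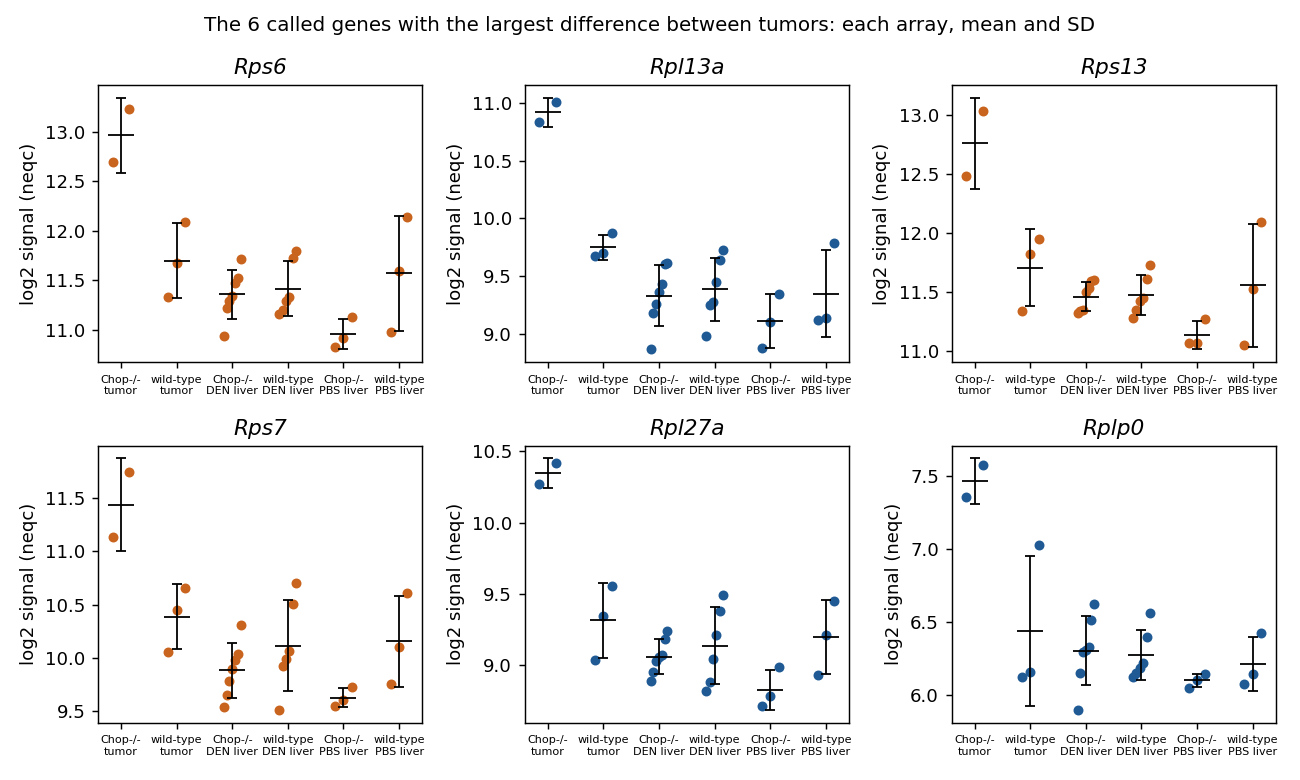
Log2 signal of the 6 called genes with the largest difference between tumors, 1 point per array, with the group mean and SD in black (small subunit orange, large subunit blue). In every panel both Chop-/- tumors lie above all other arrays, as for Rps6 at 12.70 and 13.23. The axes do not start at 0.

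Other parts of the ribosome were counted in the same way, with no test between the parts. Of 6 tested proteins that line or surround the exit tunnel of the large subunit (Rpl19, Rpl22, Rpl23a, Rpl31, Rpl35 and Rpl39), 4 rose, with a median of 0.70, and Rpl23a was not among those called with array set as a block. Rpl35, near the site where the signal recognition particle docks, stood at 0.91 and Rpl22 at 0.42 without passing (adjusted p = 0.082, limma). The 3 tested proteins of the mRNA channel and decoding region, Rps2, Rps3 and Rps15, all rose, by 0.80, 0.99 and 0.66, of which Rps2 lost the call with array set as a block. Of the 5 tested proteins that bridge the subunits or join the large subunit late, 1 (Rpl19, 0.81) rose, with a median of 0.62. Rpl5 carries 5S rRNA into the large subunit and, when not built in, binds MDM2. It read 13.81 and 14.05 in Chop-/- tumors, against 13.58, 13.40 and 12.87 in wild-type tumors (difference 0.64 ± 0.19, adjusted p = 0.034, limma), and it missed the threshold with array set as a block (adjusted p = 0.051).

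The paralogs did not move as a group. Rpl22l1, a paralog that the Rpl22 protein represses in mice, read 8.06 and 8.07 in Chop-/- tumors, against 7.55, 6.90 and 7.08 in wild-type tumors. Its difference of 0.89 ± 0.28 just passed (adjusted p = 0.046, limma), and it missed the threshold under 10 of the alternative settings, array set as a block among them (adjusted p = 0.083, limma). Rpl22 read 10.06 and 9.83 in Chop-/- tumors, against 9.49, 9.67 and 9.42 in wild-type tumors, and here the groups did not overlap either. Rps27l, a target gene of p53, read 14.07 and 13.88 in Chop-/- tumors, against 13.68, 13.52 and 14.05 in wild-type tumors, and the groups overlapped (difference 0.22 ± 0.21). Rpl7l1, a paralog that takes part in assembly of the large subunit, differed by 0.40 ± 0.22 (adjusted p = 0.25, limma).

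The genes with the least difference had dim as well as brighter probes. Rpsa (0.10 ± 0.38) and Rps15a (0.19 ± 0.31) had dim probes with a wide spread. Rpl4 (0.18) was detected on all 24 arrays, and it read 9.76 and 10.27 in Chop-/- tumors, against 9.87, 9.68 and 9.95 in wild-type tumors, which overlapped. Rpl36a was bright, and it read 12.55 and 12.67 in Chop-/- tumors, against 12.79, 12.52 and 12.04 in wild-type tumors. The groups overlapped, the difference was 0.16 ± 0.20 with a 95% interval of -0.24 to 0.57 (adjusted p = 0.65, limma), and it was -0.04 without the wild-type tumor of set B. The 13 genes with a mean log2 signal above 13 had a median difference of 0.32 and none over 0.69, whereas the medians of the dimmer classes (below 8, 8 to 11 and 11 to 13) were 0.58, 0.64 and 0.70. Whether the bright probes were near saturation was not tested. Some genes had further probes, and 10 of these (3 of Rpl23 and 1 each of Rpl7l1, Rpl29, Rpl31, Rpl38, Rps3, Rps9 and Rps24) were above background on all 5 tumor arrays. All 10 were higher on average in Chop-/- than in wild-type tumors. The size differed from that of the brightest probe of the gene. It was larger for Rps24 (0.78 against 0.21), Rps9 (1.00 against 0.42), Rpl29 (0.91 against 0.38) and Rps3 (1.14 against 0.99). For Rpl23 it was 0.73, 0.37 and 0.25 (against 0.24). It was smaller for Rpl31 (0.65 against 0.82), Rpl38 (0.37 against 0.41) and Rpl7l1 (0.17 against 0.40). Under the looser rule used for genes, above background on at least 2 arrays of any group, there were 14 further probes, of which 12 were higher. The exceptions were probes of Rps19 (-0.27) and Rpl4 (-0.14), neither of which was above background on any tumor array.

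Tumors were also set against DEN-treated livers of their own genotype. In Chop-/- mice, 50 of the 56 genes rose in tumors (30 large and 20 small subunit) and none fell, against 19.1% of all genes called higher. The median difference was 0.85 (1.80-fold), against -0.05 over all genes, and the tumors did not overlap the 7 livers for 51 of the 56. Rpl12, a protein at the stalk base, led with 13.17 and 13.44 in Chop-/- tumors, against 11.36 to 11.95 (median 11.66) in DEN-treated Chop-/- livers (difference 1.63 ± 0.19, adjusted p = 8.01e-07, limma). Rps6 followed at 1.61, Rpl13a at 1.59, Rps7 at 1.56, Rpl22l1 at 1.54 and Rpl35 at 1.34. The 6 that did not pass, each by its brightest probe, were Rpl23 (0.38), Rpl7a (0.47), Rpl7l1 (0.15), Rps27l (0.34), Rps15a (-0.12) and Rpsa (-0.10). The further probes of Rpl23 were all higher on average in Chop-/- tumors than in DEN-treated Chop-/- livers. Their means were 10.005 against 8.816, 6.37 against 5.65 and 14.28 against 13.72. The further probe of Rpl7l1 was lower in Chop-/- tumors (6.41 against 6.66). These further probes were not tested on their own.

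In wild-type mice the rise was smaller. Against DEN-treated wild-type livers, 11 of the 56 rose in wild-type tumors (7 large and 4 small subunit) and none fell, against 12.1% of all genes called higher, with a median of 0.28 (1.21-fold) and 49 of the 56 above 0. Against PBS-treated wild-type livers, 10 rose (7 large and 3 small subunit) and none fell, against 10.8% of all genes, with a median of 0.27 and 49 of the 56 above 0. The 2 comparisons share their tumors. As shares of the 56 genes, these counts were 19.6% and 17.9%, closer to their backgrounds than the 89.3% in Chop-/- mice. They rested on single arrays: the count against DEN-treated livers was 6 without the tumor on array A_08 and 7 without the DEN-treated liver on array A_02 or B_11, and that against PBS-treated livers was 2 without the liver on array B_09 and 5 without the tumor on array A_08 or B_12.

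Rps12, a protein of the beak of the small subunit, differed most in wild-type tumors. It read 13.47, 13.50 and 13.66 in wild-type tumors, against 12.62 to 13.23 (median 12.81) in DEN-treated wild-type livers and 12.54, 12.70 and 13.01 in PBS-treated wild-type livers. The tumors overlapped neither group of livers, with differences of 0.69 ± 0.15 from DEN-treated livers (adjusted p = 0.0017, limma) and 0.80 ± 0.17 from PBS-treated livers (adjusted p = 0.0020, limma). Rpl12 (0.60 and 0.63) and Rpl23a (0.60 and 0.51), which lines the exit tunnel, passed both tests as well. Rps6, first between the tumor genotypes, differed by 0.28 ± 0.22 between wild-type tumors and DEN-treated livers and did not pass (adjusted p = 0.41, limma). The members below 0 in both comparisons were Rpl7a, Rpl7l1, Rpl22, Rpl27, Rps2, Rps15a and Rpsa, and none of them passed.

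**Figure D4:**
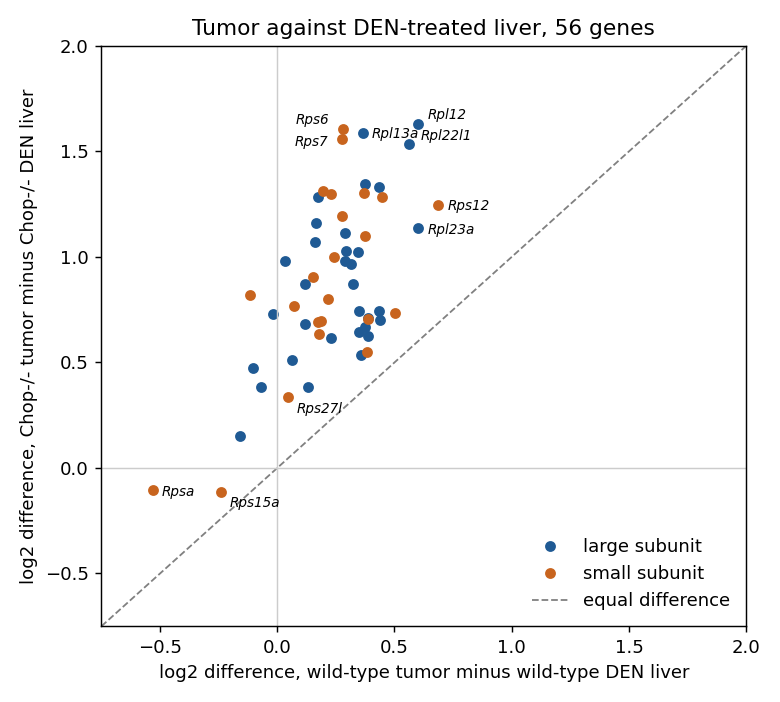
Log2 difference between tumor and DEN-treated liver for the 56 genes, in Chop-/- mice (vertical; 2 tumors, 7 livers) and in wild-type mice (horizontal; 3 tumors, 6 livers), with large subunit genes in blue and small subunit genes in orange. All 56 points lie above the dashed line of equal difference, with Rps6 at 1.61 and 0.28.

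The difference between those differences was tested directly as an interaction. The difference of tumor over DEN-treated liver was higher in Chop-/- than in wild-type mice for all 56 genes, by a median of 0.62, against -0.04 over all genes, although for Rps15a and Rpsa it lay below 0 in both genotypes. For 15 of the 56 (8 large and 7 small subunit) the interaction passed the test in that direction and for none in the other, against 1.64% of all genes. It was 1.33 ± 0.33 for Rps6 (adjusted p = 0.026, limma), 1.29 ± 0.35 for Rps7 (adjusted p = 0.037) and 1.23 ± 0.28 for Rpl13a (adjusted p = 0.015). Without the Chop-/- tumor of set C none passed, and without the other Chop-/- tumor 24 did. The count was 4 without the wild-type tumor on array A_08 and 8 without that on array A_04. As these tests reuse the tumors of the comparison above, they are not separate evidence.

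Outside tumors, no ribosomal protein gene passed the test for genotype or for DEN. In PBS-treated livers, Chop-/- mice had lower values than wild-type mice for 42 of the 56 genes, with a median of -0.19, against 0.01 over all genes. The median was -0.07 without the wild-type liver on array C_17. None was called (limma, 0.0223% of all genes called in either direction), and 5 were lower at an unadjusted p under 0.05 (Rpl4, Rpl9, Rpl30, Rps4x and Rps6), against 4.84% of all genes. Rpl4 had the smallest p, with 9.02, 9.05 and 9.13 in PBS-treated Chop-/- livers, against 9.45, 9.63 and 9.73 in PBS-treated wild-type livers, so that the groups did not overlap (difference -0.54 ± 0.18, adjusted p = 0.41, limma). Within sets, 1 array against 1, the median was -0.10 in set A, -0.02 in set B and -0.36 in set C, where the wild-type liver had the highest level of its group.

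In DEN-treated livers, the 56 genes differed between Chop-/- and wild-type mice by a median of -0.04, with differences of -0.33 (Rpsa) to 0.12 (Rpl38), and none was called at either an adjusted or an unadjusted p under 0.05 (limma, 0.0223% of all genes called). DEN-treated livers differed from PBS-treated livers by a median of 0.14 in Chop-/- mice, where none was called (0.0223% of all genes called, limma). There 5 of the 56 were higher at an unadjusted p under 0.05, near the share over all genes (710 of 8969 in either direction). In wild-type mice the median was 0.03 and none was called (0% of all genes, limma). There 1 gene, Rpl22, was lower at an unadjusted p under 0.05 (difference -0.28 ± 0.12), against 246 of all 8969 genes in either direction.

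The medians of the large and small subunits lay close together. Between tumors, the median difference was 0.58 for the large subunit, with a range of 0.16 to 1.17, and 0.66 for the small subunit, with a range of 0.10 to 1.27. Between Chop-/- tumors and DEN-treated Chop-/- livers the medians were 0.87 for the large and 0.82 for the small subunit, and between wild-type tumors and DEN-treated wild-type livers 0.31 for the large and 0.23 for the small subunit. On single arrays the median of the large subunit minus that of the small subunit was -0.06 and 0.15 in Chop-/- tumors, against -0.07, 0.04 and 0.13 in wild-type tumors, so that neither subunit led in both Chop-/- tumors.

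Other genes of protein synthesis were compared in the same way. Fau, whose protein is cleaved to yield a small subunit protein, lies outside the symbol rule and rose in Chop-/- tumors by 1.24 ± 0.19 over wild-type tumors (adjusted p = 3.0e-04, limma). Rpl36al, the other such gene tested, differed by 0.30 ± 0.16 and did not pass (adjusted p = 0.22, limma). Of 15 tested translation genes with 5′TOP mRNAs other than ribosomal proteins, 14 lay above 0, and the median was 0.44. Of these 15, 4 rose and none fell, against 4.43% of all genes called higher. They were Tpt1, the translationally controlled tumor protein (1.57), the elongation factor subunit Eef1b2 (0.99), the initiation factor subunit Eif3h (1.02) and Btf3 (0.81), which the study used as a qRT-PCR normalizer. Against DEN-treated Chop-/- livers, 13 of the 15 rose in Chop-/- tumors, with a median of 0.86, against 19.1% of all genes called higher. Against DEN-treated wild-type livers none of the 15 was called in wild-type tumors, where 12.1% of all genes were called higher, and 11 lay above 0 with a median of 0.21. Of 35 tested genes that build ribosomes, 2 rose (Eif6, 0.86, and Polr1c, 0.55) and 2 fell (Polr1a, the largest subunit of RNA polymerase I, -0.94, and Nop2, -0.72) between Chop-/- and wild-type tumors, with a median of 0.08. Of 70 mitochondrial ribosomal protein genes, 2 rose (Mrps6, 0.62, and Mrps21, 0.59) and none fell, with a median of 0.16. Over all genes 4.43% were called higher and 549 of 8969 lower, so the counts of these 2 lists were not above the background by much, if at all. Against DEN-treated livers of their own genotype, 8 of the 70 rose and 9 fell in Chop-/- tumors, with a median of 0.00. Of all genes 19.1% were called higher and 20.3% lower there. In wild-type tumors 3 rose and 14 fell, with a median of -0.20, against 12.1% of all genes called higher and 10.2% lower.

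**Figure D5:**
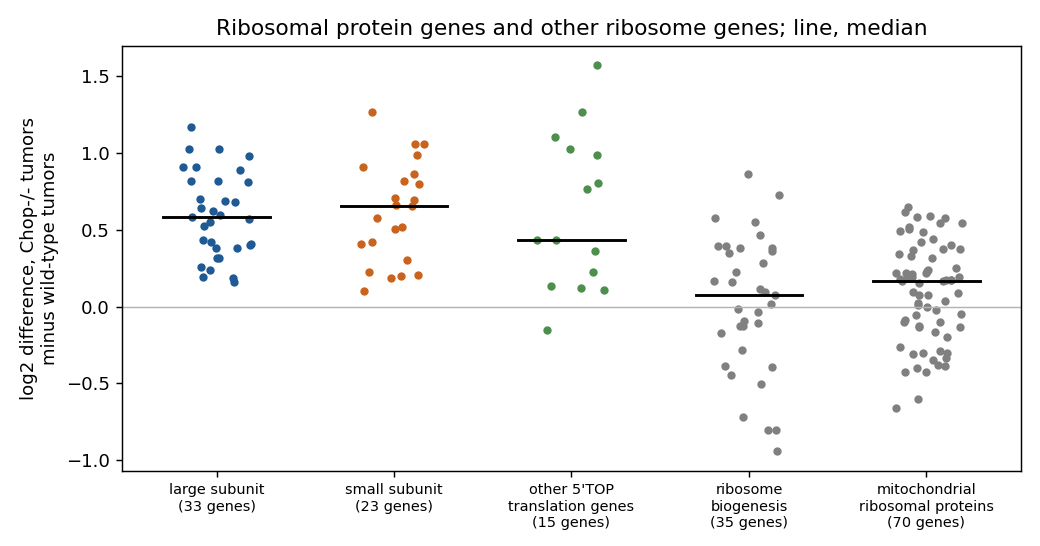
Log2 difference between Chop-/- tumors (n = 2) and wild-type tumors (n = 3), 1 point per gene, for 5 gene groups, with the group median as a black line. The medians are 0.58 (large subunit), 0.66 (small subunit), 0.44 (other 5′TOP translation genes), 0.08 (ribosome biogenesis) and 0.16 (mitochondrial ribosomal proteins).

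Markers of other cells moved with the tumor genotypes too. Between Chop-/- and wild-type tumors, 2 of 4 tested neutrophil and monocyte markers rose (S100a8, 2.30, and S100a9, 2.27), and the mean level of the list was 5.84 to 8.19 in Chop-/- tumors, against 5.61 to 5.69 in wild-type tumors, with Ltf above background in neither group. Of 3 tested red cell markers 2 rose (Slc4a1 and Hba-a1), with a mean level of 9.54 to 11.39 in Chop-/- tumors, against 8.72 to 8.77 in wild-type tumors. Of 10 hepatocyte markers 3 fell (Cyp2e1, -4.13, Cyp3a11, -3.13, and Fgb, -0.84) and none rose. Of the 10, 3 lay above 0 and 7 below, with a median of -0.45, so the drop was largest in the 2 Cyp genes. The mean level of the list was 10.70 to 11.05 in Chop-/- tumors, against 11.65 to 11.88 in wild-type tumors. Tat was not above background in either Chop-/- tumor. Of 8 Kupffer cell markers 2 fell (Clec4f, -2.71, and Vsig4, -2.12). Of the 8, 1 lay above 0 (C1qb, 0.21) and 7 below, with a median of -0.39. Marco and Timd4 were not above background in either Chop-/- tumor. Of 7 endothelial markers Pecam1 rose (1.02) and 3 of the sinusoidal type fell (Clec4g, -1.95, Oit3, -1.61, and Stab2, -1.02). Lyve1, also of the sinusoidal type, did not fall (0.19, adjusted p = 0.86, limma). Of the 7, 3 lay above 0 and 4 below, with a mean level of 7.75 to 8.26 in Chop-/- tumors, against 8.29 to 8.60 in wild-type tumors. Of 10 stellate cell markers Col1a2 rose (1.13), while 6 lay above 0 and 4 below, with a median of 0.38. Of 5 T and NK cell markers Il7r rose (1.90), against the other 4, which lay below 0 without passing. The median of that list was -0.78. The 4 were Ccl5 (-0.93) and Cd3d, Cd3e and Cd3g, of which the last 3 were not above background in either Chop-/- tumor. Of 12 proliferation genes 1 fell (Mcm5, -1.04) and none rose, with a median of -0.21. Tumors and DEN-treated livers of 1 genotype differed in markers as well. In Chop-/- mice 9 of the 12 proliferation genes and 7 of 7 fetal liver and liver tumor markers rose and 4 of 8 Kupffer cell markers fell, and in wild-type mice 11 of 12 and 4 of 7 rose and 4 of 8 fell. In each genotype 3 of the 8 Kupffer cell markers (Adgre1, C1qb and C1qc) lay above 0 and 5 below. The mean level of the proliferation list was 6.47 to 6.98 in Chop-/- tumors, against 5.27 to 6.16 in DEN-treated Chop-/- livers, and 6.81 to 7.19 in wild-type tumors, against 5.30 to 5.54 in DEN-treated wild-type livers. In bulk tissue, a change in the number of cells of a type and a change of mRNA per cell cannot be told apart, and the part of these cell types in the ribosomal protein values was not tested.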

How the data were processed

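The deposited intensities are bead averages that the authors exported with GenomeStudio 2011.1, already background subtracted (26.88% are negative). The detection p-value of each probe, as deposited by the authors, compares it with negative control beads. Log2 values that the authors made from these intensities after adding a constant were deposited too and used as an alternative. Arrays were tied to groups by the array names in the study's supplementary table, and 48 columns of per-sample values (bead counts and bead errors) were not used.

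Intensities were background corrected from the detection p-values, given an offset of 16, then quantile normalized and log2 transformed (neqc, limma 3.58.1, R 4.3.3). A gene was represented by its brightest probe among those detected (p under 0.01) on at least 2 arrays, which left 8969 genes. One limma model (lmFit, eBayes) with 6 group means gave 9 contrasts, each adjusted by Benjamini-Hochberg over all genes and called at an adjusted p under 0.05. The script was tested on simulated data. The number of arrays limits the precision. Probes of ribosomal protein genes may also bind transcripts of their many processed pseudogenes.

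The genes named in each comparison were the 6 called with the largest difference, the 2 nearest to 0, those with the smallest p where few were called, the stalk, 5S RNA and paralog genes, and those against the rest. The members and lists were chosen with earlier results of these data known. Rpl9, Rps2, Rps3, Rps15, Rps19, Rpl35 and other members outside that rule were named by role or to spell out small counts. Alternatives changed the background correction, scaling, values, detection filter, probe rule, arrays fitted, array weights, array set and replicates.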

Additional observations from a re-analysis of the deposited data

Results flagged for a closer look

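The difference of tumor over DEN-treated liver differed between genotypes by a test of the interaction for 15 of the 56 ribosomal protein genes (limma, adjusted p under 0.05), higher in Chop-/- mice in each, against 1.64% of all genes. Among the named genes, the interaction on the log2 scale was 1.33 for Rps6, 1.29 for Rps7, 1.23 for Rpl13a, 1.11 for Rpl27a, 1.07 for Rps13 and 1.00 for Rplp0. None of the 15 passed without the Chop-/- tumor of set C, and 24 genes passed without the other Chop-/- tumor.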

How the results depend on the processing

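The number of genes called higher in Chop-/- than in wild-type tumors (25) was 5 with array weights (101 of all 8969 genes). It was 14 with array set as a fixed block (216 of all 8969 genes). It was 0 with only the tumor arrays in the limma fit (23 at an unadjusted p under 0.05, against 12% of all genes in either direction). It ranged over 1 (without the Chop-/- tumor C_24) to 33 (without B_16) when single arrays were left out. With only the arrays compared, 0 genes were called in wild-type tumors against PBS-treated livers (limma, 5 at an unadjusted p under 0.05), and the range without single arrays was 2 to 9. On the authors' log2 values 1 gene was called lower there, as it was with the replicate number as a block, with a range of 0 to 1 without single arrays. In wild-type tumors against DEN-treated livers, array weights gave 21 higher and 1 lower, array set as a fixed block 1 lower, and the range of genes called higher without single arrays was 6 to 14. The interaction (15) gave 2 with array weights, 8 with array set as a block, and 0 to 24 without single arrays. Differences between tumor genotypes changed sign for Rpl36a (-0.0401 to 0.3338 without single arrays) and for Rpsa (-0.1762 to 0.3749 without single arrays, -0.0916 without background correction), neither of which passed. The cause was not tested.

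Same-numbered replicates did not deviate together (5 of 25 correlations over 0.1, range -0.19 to 0.32). With the replicate number as a block, on the authors' log2 values, 32 genes were called between tumor genotypes, all 25 among them, and on those values without the block 34 were. The median difference between tumor genotypes stayed at 0.51 to 0.69 without single arrays. Over 223 pairs of a named gene and an alternative, 40 lost the call, 2 gained it, 5 changed sign and the rest kept direction and side of the threshold. With 2 and 3 tumors, the number of arrays limits every comparison of tumors.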
